A study of Homo sapiens with 6 samples.

Results

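Among 40658 annotated cassette exons in MDA-LM2 breast cancer cells, 5078 exons of 3104 genes met a rule of depth and of no skipping. In the control cells they had at least 100 reads that fitted only inclusion and no read across their skipping junction. This holds in the annotated event chosen for each exon, and exons with fewer reads were not considered. This report describes what became of the chosen exons when either of 2 spliceosome proteins was depleted. MDA-LM2 is a line selected for lung metastasis from MDA-MB-231. The cells carried siRNAs against SNRPA1 (siSNRPA1), against SNRPB (siSNRPB) or a control siRNA (siCtrl), delivered with a lipid reagent, and total RNA was taken 48 h later for stranded RNA sequencing. There are 3 siSNRPA1 libraries, 1 siSNRPB library and 2 siCtrl libraries, and the deposited files hold 1 pool of reads for each group, so replicate spread cannot be given for any value below. The series names 3 siRNAs against SNRPA1 and 2 against SNRPB without tying each to a library, and the design text calls the controls mock-transfected.

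An exon was chosen where at least 100 reads of the siCtrl pool fitted only its inclusion and 0 fitted only its exclusion, and where both knockdown files held the event. Reads of the first kind lie in the exon or on its junctions, and reads of the second kind, called exclusion reads here, join the exons on either side. The remaining kind, (1,1) reads, fits both isoforms and lies in the flanking exons. The exclusion share is the percentage of exclusion reads among the informative reads, which are those of the first and second kinds. It is a share of reads and not of molecules, because a long exon collects more inclusion reads than a short one from the same transcript. Of 7021 exons with at least 100 inclusion reads in siCtrl, 72.3% met the rule, and 1943 had exclusion reads there.

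The choice rests on measured siCtrl reads, so every comparison of a knockdown with siCtrl below is a description without a test. A siCtrl count of 0 allows an exclusion share of up to 3% at 100 reads (3 reads of the total) and of up to 1.26% at the median depth of the chosen exons, so "never skipped" holds only to that limit. The informative reads per exon had a median of 331 in siSNRPA1 (24 to 135965), 136 in siSNRPB (3 to 77951) and 238 in siCtrl (100 to 105467). Different exon forms can share reads. Merging the 1273 chosen forms that overlap another leaves 4377 places in the genome, and 65 chosen exons had exclusion reads in another annotated siCtrl event of the same exon. Most of the exons are ordinary coding exons: 78.0% were wholly coding, 12.3% partly coding and 5.32% in noncoding transcripts, with 104 exons in 5′ UTRs and 24 in 3′ UTRs. The junction that skips the exon is annotated for 93.6% of them, so the skipped form is a known transcript in most cases.

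Splicing removes introns between exons in the spliceosome, which is built from small nuclear ribonucleoproteins (snRNPs) on each intron. The U1 snRNP pairs with the 5′ splice site and the U2 snRNP with the branch point near the 3′ splice site. In vertebrates an exon is often recognised as a unit by factors at its own ends, and when this fails the exons on either side may be joined directly. SNRPA1 encodes the U2 A′ protein of the U2 snRNP, and SNRPB encodes the SmB and SmB′ proteins of the ring shared by most spliceosomal snRNPs. Both targets were low in their own pools. Reads over the skipped-exon events of SNRPA1 came to 19.4, 242 and 105 per 1000000 isoform-fitting reads in siSNRPA1, siSNRPB and siCtrl, and those of SNRPB to 299, 27.3 and 219. Of markers of the line, CD44, a surface receptor high in MDA-MB-231, stood at 4240, 4420 and 4010 per 1000000 in the same pools. ESR1, the oestrogen receptor that the parent line lacks, stood at 0.908, 0.932 and 2.44 per 1000000, and CDH1, the epithelial cadherin, at 0.584, 0 and 0.957.

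The exons below are among those that passed the test between the knockdowns and are shown so that the skipped sequence can be read. Of these, only TMEM106C and PTPN2 passed both with the depths of the knockdowns matched and with all counts divided by 2. Each is a coding exon on hg38, taken from GENCODE 29 transcripts and written 5′ to 3′ on the gene's strand, with its last 3 bases, the exonic side of the 5′ splice site, in capitals. Exon numbers follow 1 transcript that holds the exon. The exons of HSPA9 (chr5:138574068-138574126, minus strand, exon 2 of 17), PSMA4 (chr15:78544190-78544267, plus, exon 5 of 9) and POLR1B (chr2:112547083-112547179, plus, exon 2 of 4) had more exclusion in siSNRPA1. Those of TMEM106C (chr12:47965282-47965345, plus, exon 3 of 8), PTPN2 (chr18:12794384-12794485, minus, exon 9 of 10), MRPL3 (chr3:131498179-131498277, minus, exon 4 of 10), TOMM7 (chr7:22818000-22818048, minus, exon 2 of 3) and ATIC (chr2:215319665-215319731, plus, exon 4 of 16) had more in siSNRPB.
HSPA9: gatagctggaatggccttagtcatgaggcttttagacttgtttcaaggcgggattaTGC
PSMA4: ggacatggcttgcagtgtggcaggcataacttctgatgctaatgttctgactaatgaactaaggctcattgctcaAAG
POLR1B: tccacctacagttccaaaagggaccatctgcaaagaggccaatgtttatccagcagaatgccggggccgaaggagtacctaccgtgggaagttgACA
TMEM106C: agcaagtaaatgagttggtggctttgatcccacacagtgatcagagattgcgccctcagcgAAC
PTPN2: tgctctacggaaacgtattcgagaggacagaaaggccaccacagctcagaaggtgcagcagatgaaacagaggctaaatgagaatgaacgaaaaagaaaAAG
MRPL3: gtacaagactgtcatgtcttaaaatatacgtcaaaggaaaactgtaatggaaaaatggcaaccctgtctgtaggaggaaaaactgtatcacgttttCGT
TOMM7: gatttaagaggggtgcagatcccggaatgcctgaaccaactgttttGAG
ATIC: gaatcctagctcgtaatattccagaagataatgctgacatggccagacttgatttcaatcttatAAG

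An AG at the last 2 bases is the common end of human exons. In the sequences above it closes PSMA4, PTPN2, TOMM7 and ATIC, and it is missing from HSPA9 (TGC), POLR1B (ACA), TMEM106C (AAC) and MRPL3 (CGT). Over all exons with a sequence, AG ended 46.8% of 77 exons that gained exclusion in siSNRPA1 and 50.5% of 111 in siSNRPB, against 57.1% of all 4984 chosen exons and 55.8% of 38888 annotated cassette exons. A final G closed 70.1%, 77.5%, 81.8% and 79.9% of the same sets. The triplet AAG ended 11.7% of the gaining exons in either knockdown and 17.9% of all chosen exons, while CAG ended 24.7% in siSNRPA1, 21.6% in siSNRPB and 24.1% of all. These shares are descriptions of these letters, and no splice site strength was scored. The lengths of PSMA4 (78 nt, 26 codons), PTPN2 (102 nt, 34 codons) and MRPL3 (99 nt, 33 codons) are multiples of 3, so their skipping keeps the reading frame, while those of HSPA9 (59 nt), POLR1B (97 nt), TMEM106C (64 nt), TOMM7 (49 nt) and ATIC (67 nt) are not.

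Most of the exons stayed without an exclusion read after either knockdown. In siSNRPA1, 1232 of 5078 exons (24.3%) had at least 1 exclusion read, and in siSNRPB 639 (12.6%) had one. The siSNRPB pool is shallower. With each exon brought to 50 informative reads the expected shares were 10.6% of 5069 exons in siSNRPA1 and 7.81% of 4556 in siSNRPB. Each share covers the exons with at least 50 informative reads in its own pool, so the sets of exons differ and the shares are not matched. Summed over the exons, exclusion reads were 6710 of 3937326 informative reads in siSNRPA1, or 0.170% (95% Wilson interval 0.166 to 0.175%). In siSNRPB they were 2838 of 1720297, or 0.165% (0.159 to 0.171%). Only a few reads were usual: 471 exons in siSNRPA1 and 219 in siSNRPB had 5 or more exclusion reads, and 187 and 66 had 10 or more. Wilson intervals here cover counting error alone, since the reads carry no molecular identifiers and are not independent molecules.

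An exon was said to gain exclusion in a knockdown when it had at least 5 exclusion reads there and an exclusion share at least 5 percentage points above siCtrl. By this measure 79 exons of 71 genes (1.56%) gained exclusion in siSNRPA1, with a median share of 7.11%, and 22 of them reached 10% and 2 reached 20%. In siSNRPB 112 exons of 103 genes (2.21%) gained it, with a median share of 8.92%, and 44 reached 10% and 9 reached 20%. Over all cassette exons with 20 informative reads in both pools the same gain was seen in 12.2% for siSNRPA1 and 12.1% for siSNRPB, but the rule used these contrasts and nothing is read from the gap. The gaining exons held 22.5% of all exclusion reads of the chosen exons in siSNRPA1 and 40.9% in siSNRPB. Both comparisons share the siCtrl pool, so their gains are given side by side and not counted together.

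The rule makes a rise the only possible direction, so it was also turned round. Exons with at least 100 inclusion reads and no exclusion read in siSNRPA1 numbered 4997, and in siCtrl 27 of them (0.54%) had gained exclusion by the same measure, with 0.0557% exclusion reads. Exons chosen so in siSNRPB numbered 3213, and in siCtrl 15 of them (0.467%) had gained it, with 0.0605% exclusion reads. These gain and read shares are smaller than their counterparts among the exons chosen in siCtrl, where 1.56% and 2.21% of exons gained and exclusion reads were 0.170% and 0.165%. The share of exons with any exclusion read was 7.70% for those chosen in siSNRPA1, against 24.3% for its counterpart, and 12.4% for those chosen in siSNRPB, close to the 12.6% of its counterpart. Depths were not matched: the exons chosen in siSNRPA1 had a median of 193 informative reads in siCtrl, and those chosen in siSNRPB had 364. The exons chosen in siCtrl had 331 in siSNRPA1 and 136 in siSNRPB. The sets were also chosen separately, so nothing is read from these gaps.

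**Figure D1:**
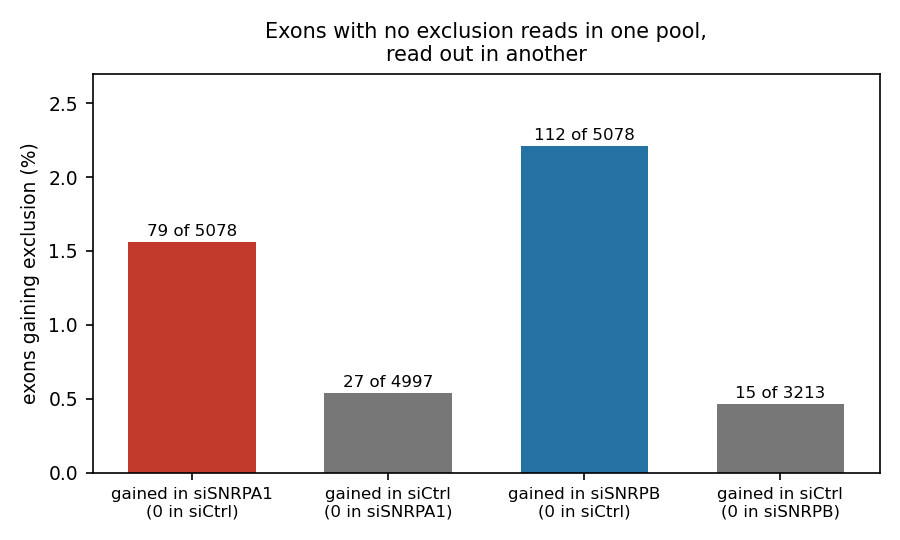
Percentage of exons that gained exclusion (at least 5 exclusion reads and 5 percentage points) in 1 pool among exons with no exclusion read in another; numbers over the bars are exons that gained and exons chosen. The bars for siSNRPA1 (1.56%) and siSNRPB (2.21%) stand above those for the rule turned round, 0.54% and 0.467% in siCtrl. The sets were chosen separately and their depths were not matched.

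Exons on either side of the threshold had these values. The 331 exons with 100 to 109 inclusion reads in siCtrl, just inside, gained exclusion in 2.72% of cases in siSNRPA1 and 4.23% in siSNRPB. Just outside, 355 exons with 90 to 99 reads and no exclusion read gained it in 6.48% and 3.66%. A further 299 exons met the depth but had 1 exclusion read in siCtrl, and of these 8.03% gained exclusion in each knockdown.

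The exon of TMEM106C, a transmembrane protein, had the highest exclusion share of the chosen exons in siSNRPB and the second highest in siSNRPA1. Its 64-nt exon had 56 exclusion reads beside 174 inclusion reads in siSNRPA1, 50 beside 34 in siSNRPB and 0 beside 102 in siCtrl. The shares are 24.3% in siSNRPA1 (19.3 to 30.3%) and 59.5% in siSNRPB (48.8 to 69.4%), and siCtrl allows up to 2.94%. Skipping reads thus outnumbered inclusion reads only in siSNRPB. The siSNRPA1 share less the siSNRPB share was -35.2 points (Fisher's exact test, adjusted p = 2.53e-06). The authors' inclusion level, a model estimate between 0 and 1 that also uses (1,1) reads, was 0.48, 0.21 and 0.56 in siSNRPA1, siSNRPB and siCtrl, so it put the exon well below full inclusion even where no read skipped it.

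Exons of PSMA4 and POLR1B had more exclusion in siSNRPA1 than in the other pools. PSMA4, an alpha subunit of the proteasome core, had 38 exclusion reads beside 231 inclusion reads in siSNRPA1 (14.1%), 0 beside 51 in siSNRPB and 0 beside 155 in siCtrl. POLR1B, a core subunit of RNA polymerase I, had 36 beside 228 in siSNRPA1 (13.6%), 6 beside 192 in siSNRPB (3.03%) and 0 beside 206 in siCtrl. In both exons the siSNRPA1 share lay above the siSNRPB share, by 14.1 points in PSMA4 and 10.6 in POLR1B. The ratio of inclusion to (1,1) reads did not follow this in PSMA4, at 0.225 in siSNRPA1, 0.138 in siSNRPB and 0.196 in siCtrl. In POLR1B it was lowest in siSNRPA1, at 2.33, 3.62 and 4.29 in the same pools.

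HSPA9, the mitochondrial HSP70 chaperone, had the most exclusion reads of the exons that gained exclusion in siSNRPA1. Its 59-nt coding form had 84 exclusion reads beside 582 inclusion reads in siSNRPA1 (12.6%), 22 beside 378 in siSNRPB (5.5%) and 0 beside 515 in siCtrl. A 102-nt form with the same 3′ end shares those exclusion reads and had 577, 349 and 496 inclusion reads. Exclusion was 7.11 points higher in siSNRPA1 than in siSNRPB for the short form (Fisher's exact test, adjusted p = 0.00386) and 6.78 points for the long form (adjusted p = 0.0122). Further chosen exons of the gene had almost none, and exon 13 had 1 exclusion read beside 3399 inclusion reads in siSNRPA1, 0 beside 1581 in siSNRPB and 0 beside 2536 in siCtrl. A 74-nt exon, number 6, had 0 exclusion reads in all pools beside 740, 426 and 603 inclusion reads. The ratio of inclusion to (1,1) reads of the 59-nt form also stood apart, at 0.311 in siSNRPA1, 0.687 in siSNRPB and 0.719 in siCtrl.

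Some exons had exclusion reads in both knockdowns without a clear difference between them. CCNB1, cyclin B1 of the mitotic kinase, had 53 exclusion reads beside 388 inclusion reads of its 59-nt form in siSNRPA1 (12%), 14 beside 154 in siSNRPB (8.33%) and 0 beside 190 in siCtrl. A 111-nt form of the same exon shares the exclusion reads and had 7.11% and 3.79%, so the share depends on which form is read. CHAF1A, the large subunit of the histone chaperone CAF-1, had 17 beside 106 for its 51-nt exon in siSNRPA1 (13.8%), 7 beside 37 in siSNRPB (15.9%) and 0 beside 180 in siCtrl. FGFR1OP2, a coiled-coil protein, had 20 beside 129 in siSNRPA1 (13.4%), 14 beside 50 in siSNRPB (21.9%) and 0 beside 113 in siCtrl. The differences between the knockdowns for these exons did not pass the test (Fisher's exact test, adjusted p of 0.974, 1 and 0.721 for CCNB1, CHAF1A and FGFR1OP2).

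Other exons with high shares in siSNRPA1 were those of PRXL2C, a peroxiredoxin-like protein (16.3% in siSNRPA1, 10.4% in siSNRPB), EIF4E2, a cap-binding protein (13.6% and 5.5%), RPE, an epimerase of the pentose phosphate pathway (12.9% and 1.39%), and MLX, a transcription factor partner in glucose sensing (12.5% and 5.75%). None of these 4 differed between the knockdowns by the test (adjusted p of 1, 0.258, 0.0713 and 0.539, Fisher's exact test). A 55-nt exon of GAS8, a protein of motile cilia, singled out after its values were seen, had 16 exclusion reads beside 47 inclusion reads in siSNRPA1 (25.4%), 1 beside 23 in siSNRPB and 0 beside 103 in siCtrl.

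**Figure D2:**
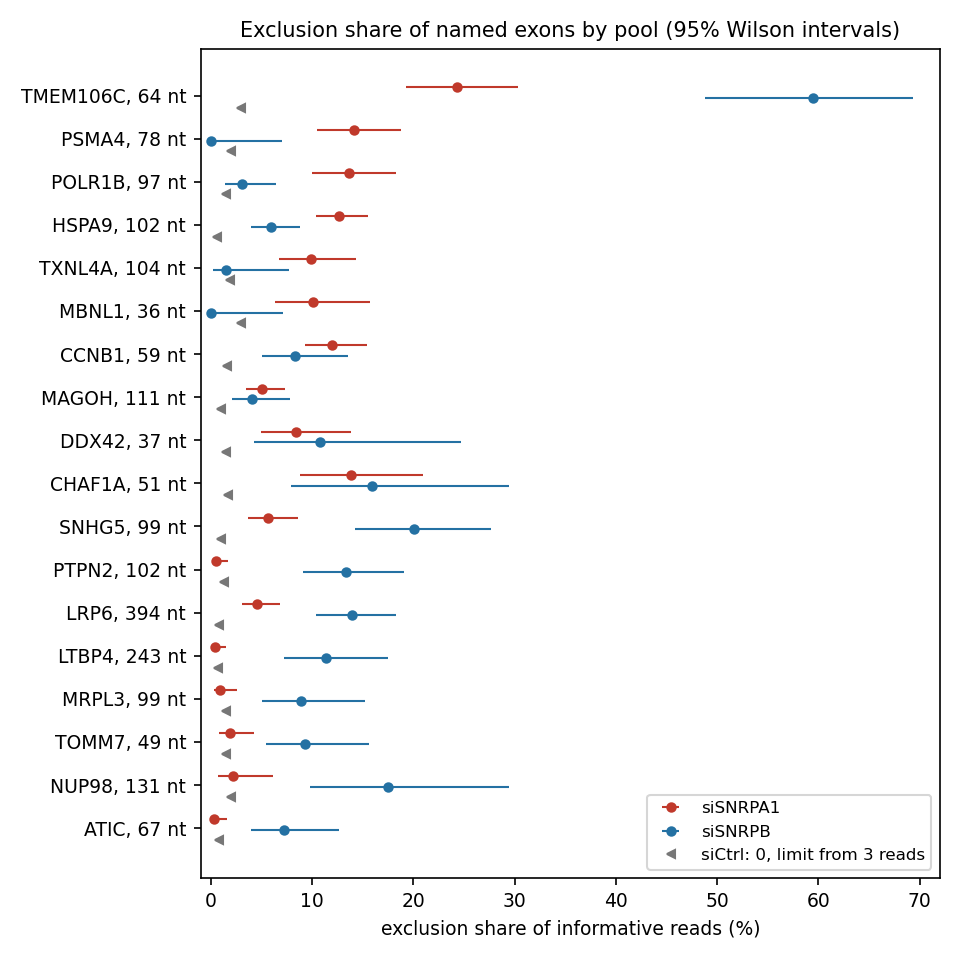
Exclusion share (percent of informative reads) of 18 named exons in siSNRPA1 (red) and siSNRPB (blue), with bars for 95% Wilson intervals, and the upper limit that 0 reads allow in siCtrl (grey triangles). PSMA4 had a share of 14.1% in siSNRPA1 and no exclusion read in siSNRPB, PTPN2 and LTBP4 had the reverse pattern with shares under 1% in siSNRPA1, and TMEM106C lies far to the right in both.

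The comparison of siSNRPA1 with siSNRPB uses none of the siCtrl reads that chose the exons. It shows which exons held unequal shares of exclusion reads in the 2 knockdown pools. Each cassette exon of the whole table with 20 informative reads in both pools was tested with a two-sided Fisher's exact test and Benjamini-Hochberg adjustment, and it passed at an adjusted p under 0.05 with shares at least 5 points apart. Because spread between libraries cannot be seen, a pass sets 1 pool of reads apart from the other and says nothing of the conditions beyond that. Of 5023 chosen exons tested, 12 had higher exclusion in siSNRPA1 (9 genes) and 68 had higher exclusion in siSNRPB (64 genes). These are 0.239% and 1.35% of the tested exons, less than over all cassette exons, where 2.21% were higher and 3.74% were lower in siSNRPA1. The rule keeps exons with little or no exclusion in siCtrl, which can make a difference of 5 points rarer, so nothing is read from this gap. The median difference among passing exons was 9.38 points for those higher in siSNRPA1 and 9.05 points for those higher in siSNRPB, and 3548 exons had no exclusion read in either pool. The 55 exons below the read minimum were not tested.

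Unequal depth bears on the split between the directions. With the siSNRPA1 reads of each exon scaled to its siSNRPB depth, 8 exons passed as higher in siSNRPA1 and 19 as higher in siSNRPB. With all counts divided by 2, as if every molecule gave a pair of reads, 1 and 5 passed. Of the 27 named exons that passed, those of TMEM106C, PTPN2, C9orf3, LTBP4 and TAF11 passed under both changes. At equal depth 11 no longer passed: PSMA4, EIF4G1 and the 102-nt form of HSPA9, which were higher in siSNRPA1, and NUP98, BSCL2, MBOAT7, NUF2, ATIC, MRPL3, FAM86EP and TOMM7, which were higher in siSNRPB.

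**Figure D3:**
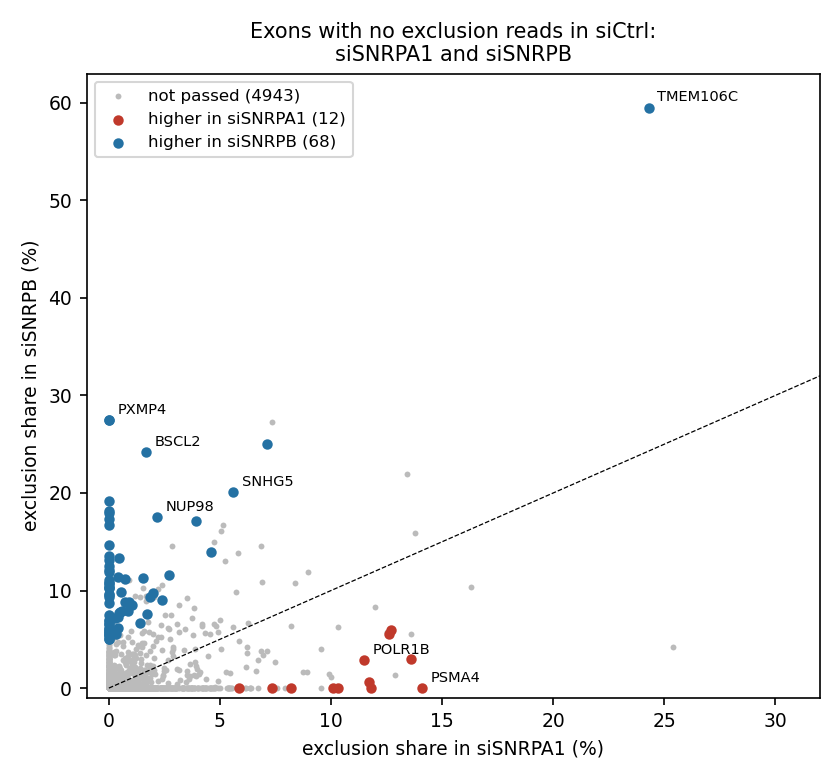
Exclusion share in siSNRPA1 (x axis, percent) and siSNRPB (y axis, percent) for the 5023 tested exons; coloured points passed the test and the dashed line marks equal shares. The 68 exons higher in siSNRPB lie mostly along the y axis, with shares near 0 in siSNRPA1, and the 12 exons higher in siSNRPA1 lie below the dashed line, up to 14.1% on the x axis, 7 of them with no exclusion read in siSNRPB.

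The exons higher in siSNRPA1 belong to 9 genes of varied function. TAF11, a subunit of the general transcription factor TFIID, had 24 exclusion reads beside 182 inclusion reads in siSNRPA1, 1 beside 171 in siSNRPB and 0 beside 208 in siCtrl. The difference of 11.1 points passed the test (Fisher's exact test, adjusted p = 0.00023), as did that of POLR1B (adjusted p = 0.00211) and PSMA4 (adjusted p = 0.0257). TAF11 overlaps a gene on the other strand, and whether strand was used in counting is not stated, so it is uncertain. SSX2IP, a centrosome and cell junction protein, had 13 beside 113 in siSNRPA1, 0 beside 115 in siSNRPB and 0 beside 138 in siCtrl. EIF4G1, the scaffold of the cap-binding complex in translation, had 16 beside 179 for a 57-nt exon of its 5′ UTR in siSNRPA1, 0 beside 104 in siSNRPB and 0 beside 209 in siCtrl. Exclusion was 10.3 points higher in SSX2IP (Fisher's exact test, adjusted p = 0.0056) and 8.21 points higher in EIF4G1 (adjusted p = 0.0289). Further genes of this set, singled out after their values were seen, are JPT1, with 13 beside 164 in siSNRPA1 and 0 beside 133 in siSNRPB, and SLC25A38, a mitochondrial glycine carrier, with 15 beside 242 and 0 beside 203.

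The exons higher in siSNRPB were more numerous, and 38 of the 80 passing exons had no exclusion read in siSNRPA1 while 7 had none in siSNRPB. The smallest p-values belonged to PTPN2, C9orf3 and LTBP4. PTPN2, a tyrosine phosphatase that acts on JAK kinases, had 2 exclusion reads beside 421 inclusion reads in siSNRPA1, 24 beside 156 in siSNRPB and 0 beside 231 in siCtrl. C9orf3, an aminopeptidase gene, had 0 beside 407 in siSNRPA1, 19 beside 141 in siSNRPB and 0 beside 266 in siCtrl. LTBP4, which binds latent TGF-beta in the matrix, had 2 beside 466 in siSNRPA1, 17 beside 132 in siSNRPB and 0 beside 453 in siCtrl. In these exons the siSNRPA1 shares of 0.473%, 0% and 0.427% lay under the siCtrl limits of 1.3%, 1.13% and 0.662%, while siSNRPB reached 13.3%, 11.9% and 11.4% (Fisher's exact test, adjusted p of 7.3e-09, 7.69e-09 and 3.53e-07).

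LRP6, a co-receptor for Wnt ligands, differed in that both knockdowns had exclusion. Its 394-nt exon had 23 beside 479 in siSNRPA1 (4.58%), 41 beside 255 in siSNRPB (13.9%) and 0 beside 361 in siCtrl (Fisher's exact test between the knockdowns, adjusted p = 0.000321). SNHG5, a noncoding host gene of small nucleolar RNAs, likewise had 19 beside 320 (5.6%) in siSNRPA1, 27 beside 107 (20.1%) in siSNRPB and 0 beside 294 in siCtrl (Fisher's exact test, adjusted p = 0.00039).

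Other large differences toward siSNRPB were found in exons with fewer reads. PXMP4, a peroxisomal membrane protein, had 0 exclusion reads beside 95 inclusion reads in siSNRPA1, 11 beside 29 in siSNRPB (27.5%) and 0 beside 107 in siCtrl. BSCL2, which encodes the lipid droplet protein seipin, had 2 beside 116 in siSNRPA1, 8 beside 25 in siSNRPB (24.2%) and 0 beside 117 in siCtrl. HGSNAT, a lysosomal acetyltransferase, had 0 beside 128 in siSNRPA1, 12 beside 54 in siSNRPB (18.2%) and 0 beside 118 in siCtrl. MFSD1, a lysosomal transporter, had 0 beside 153 in siSNRPA1, 10 beside 46 in siSNRPB (17.9%) and 0 beside 213 in siCtrl. The siSNRPB pool was shallow in these exons, and the Wilson interval of PXMP4 spans 16.1 to 42.8%. Differences (siSNRPA1 less siSNRPB) of -27.5, -22.5, -18.2 and -17.9 points passed in PXMP4, BSCL2, HGSNAT and MFSD1 (Fisher's exact test, adjusted p of 4.7e-05, 0.0027, 8.88e-05 and 8.07e-05).

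MBOAT7, an acyltransferase of phosphatidylinositol, reached 2.72% in siSNRPA1 and 11.6% in siSNRPB (Fisher's exact test, adjusted p = 0.00208). SLC35A5, a nucleotide sugar transporter family member, had 0 beside 233 in siSNRPA1 and 11 beside 96 in siSNRPB (adjusted p = 0.000141, Fisher's exact test). BCL2L13, a mitochondrial BCL-2 family protein, had 0.738% in siSNRPA1 and 11.2% in siSNRPB (Fisher's exact test, adjusted p = 0.000313), and CARD19 had 1.99% and 9.7% (adjusted p = 0.000357). A noncoding exon of FAM86EP, a pseudogene with near-identical relatives whose reads may be split between copies, had 0 beside 102 in siSNRPA1 and 5 beside 21 in siSNRPB, a difference of -19.2 points (Fisher's exact test, adjusted p = 0.00646). CNIH1, a cargo receptor of the secretory pathway, had 5.72% in siSNRPA1 and 9.84% in siSNRPB and did not pass (Fisher's exact test, adjusted p = 0.399).

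Gene lists of cell functions place these exons. Of 37 chosen exons in mitochondrial chaperone, import and protease genes, 3 gained exclusion in each knockdown (8.11%, against 1.56% of all chosen exons in siSNRPA1 and 2.21% in siSNRPB), with 2 forms of the HSPA9 exon among them in both. TOMM7, a small subunit of the outer membrane translocase, had 5 exclusion reads beside 263 inclusion reads in siSNRPA1, 12 beside 117 in siSNRPB and 0 beside 198 in siCtrl (Fisher's exact test, adjusted p = 0.0213). YME1L1, an inner membrane protease, had 36 beside 506 in siSNRPA1 (6.64%), 4 beside 226 in siSNRPB (1.74%) and 0 beside 467 in siCtrl, and missed the threshold (Fisher's exact test, adjusted p = 0.0541). MRPL3, a protein of the large mitochondrial ribosomal subunit, was the 1 gaining exon of 65 in mitochondrial translation genes. It had 3 beside 333 in siSNRPA1, 11 beside 113 in siSNRPB and 0 beside 196 in siCtrl (Fisher's exact test, adjusted p = 0.00228). In respiratory chain and TCA cycle genes, 1 of 63 exons gained exclusion in siSNRPA1 and 0 in siSNRPB. It lies in DLD, the dihydrolipoamide dehydrogenase, with 20 beside 268 in siSNRPA1, 6 beside 169 in siSNRPB and 0 beside 179 in siCtrl.

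Cell cycle and replication genes had exclusion reads in 39.5% of 86 exons in siSNRPA1 and 24.4% in siSNRPB, beside 24.3% and 12.6% of all chosen exons. Gains numbered 2 in siSNRPA1, both of them forms of the CCNB1 exon, and 4 in siSNRPB. NUF2, a kinetochore protein, had 8 beside 330 in siSNRPA1, 13 beside 131 in siSNRPB and 0 beside 283 in siCtrl (Fisher's exact test, adjusted p = 0.0363). RFC2, a clamp loader subunit, and KIF23, a kinesin of the midbody, which were singled out after their values were seen, had 6.67% and 5.05% in siSNRPB beside 1.4% and 2.77% in siSNRPA1. In nuclear transport and export genes 1 of 68 exons gained exclusion in siSNRPA1 and 2 in siSNRPB. MAGOH, a core protein of the exon junction complex, had 26 beside 490 in siSNRPA1 (5.04%), 8 beside 190 in siSNRPB (4.04%) and 0 beside 311 in siCtrl. The 131-nt form of the NUP98 exon, from a nuclear pore gene, had 3 beside 136 in siSNRPA1, 10 beside 47 in siSNRPB and 0 beside 150 in siCtrl (Fisher's exact test, adjusted p = 0.00762). A 222-nt NUP98 form shares these exclusion reads and had 0.98% and 5.85%.

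Genes of the splicing machinery itself gave 0 to 2 gains per list, too few to set against the 1.56% in siSNRPA1 and 2.21% in siSNRPB over all chosen exons. DDX42, a helicase associated with the U2 snRNP, held the 1 gain in siSNRPA1 among 17 exons of U2 and 3′ splice site genes, and none gained in siSNRPB. Its 37-nt exon had 13 beside 142 in siSNRPA1 (8.39%), 4 beside 33 in siSNRPB (10.8%) and 0 beside 207 in siCtrl. TXNL4A, a protein of the tri-snRNP, had 24 beside 218 in siSNRPA1 (9.92%), 1 beside 68 in siSNRPB and 0 beside 161 in siCtrl, the 1 gain among 27 exons of Sm, LSm and other snRNP genes. Of 63 exons in hnRNP and other regulator genes, 1 gained exclusion in siSNRPA1, that of MBNL1 with 16 beside 143, and 2 in siSNRPB, both forms of an HNRNPR exon. MBNL1 had 0 beside 50 in siSNRPB and 0 beside 100 in siCtrl. In SR protein and SR kinase genes 0 of 16 exons gained exclusion in either knockdown, with exclusion reads in 2 exons of each pool. SMN2, which cannot be told from its near-identical copy SMN1 here, had 12 beside 996 in siSNRPA1, 0 beside 444 in siSNRPB and 0 beside 494 in siCtrl. Differences between the knockdowns did not pass in DDX42, TXNL4A, MBNL1, HNRNPR or SMN2 (Fisher's exact test, adjusted p of 1, 0.192, 0.142, 1 and 0.197).

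Exons of the most deeply read transcripts had low exclusion shares. The rule can build in part of this, because 0 exclusion reads at greater depth sets a lower limit on the siCtrl share. Among 53 exons of cytosolic ribosomal protein genes 0 gained exclusion in either knockdown, and exclusion reads were 0.0344% of informative reads in siSNRPA1 and 0.0256% in siSNRPB. Of all chosen exons 1.56% and 2.21% gained exclusion in the same pools, and exclusion reads were 0.17% and 0.165%. Depth was not matched, so nothing is read from these gaps. At least 1 exclusion read was seen in 37.7% of these exons in siSNRPA1 and 13.2% in siSNRPB, beside 24.3% and 12.6% of all chosen exons. RPL41 had 26 beside 2192 in siSNRPA1, 12 beside 867 in siSNRPB and 0 beside 1205 in siCtrl, and RPS3 had 17 beside 2898, 0 beside 1784 and 0 beside 2762, both in families with many processed copies. Actin, tubulin, adhesion and motor genes had 0 gains among 73 exons, with 0.0122% and 0.0153% exclusion reads. An ACTB exon of a noncoding transcript, the deepest of all, had 0 exclusion reads beside 135965, 77951 and 105467 inclusion reads in siSNRPA1, siSNRPB and siCtrl. The large exon of SON, a nuclear speckle protein, had 1 beside 25156 in siSNRPA1, 0 beside 19425 in siSNRPB and 0 beside 20590 in siCtrl. An exon of YWHAZ, an adaptor that binds phosphorylated proteins, had 0 beside 26889, 8506 and 22688.

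Other lists had 0 to 2 gains in each knockdown. Among 88 proteasome and ubiquitin exons, PSMA4 gained in siSNRPA1, and UBE2K, a ubiquitin-conjugating enzyme, and PSMB7, a catalytic proteasome subunit, in siSNRPB. PSMB7, singled out after its values were seen, had 0 beside 572 in siSNRPA1, 15 beside 232 in siSNRPB and 0 beside 338 in siCtrl (Fisher's exact test, adjusted p = 1.95e-06), whereas UBE2K, with 18 beside 451 in siSNRPA1 and 20 beside 223 in siSNRPB, did not pass (adjusted p = 0.186). Translation factors had 2 gains of 61 exons in siSNRPA1, EIF4E2 and EIF4G1, and 1 in siSNRPB. Cytosolic and ER chaperones had 0 and 2 of 42, in CCT3 and DNAJC7, and CCT6A of the same chaperonin had 23 beside 1386 in siSNRPA1, 9 beside 669 in siSNRPB and 0 beside 926 in siCtrl. Metabolic genes had 1 of 76 in each, that in siSNRPB being ATIC of purine synthesis. ATIC had 1 beside 351 in siSNRPA1, 10 beside 129 in siSNRPB and 0 beside 355 in siCtrl (Fisher's exact test, adjusted p = 0.000946). Vesicle trafficking genes had 0 and 1 of 71. In CLTA, the clathrin light chain, and SEC31A, a COPII coat protein, the knockdowns differed with adjusted p of 0.000272 and 0.00283 (Fisher's exact test), but by -2.23 and -4.14 points (siSNRPA1 less siSNRPB), under the size of 5 points required. Counts of 0 to 4 exons in a list carry little weight, and no list was tested.

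Gain of exclusion fell with the length of the exon. Of 242 exons up to 60 nt, 4.55% gained exclusion in siSNRPA1 and 4.13% in siSNRPB, and of 1224 exons over 200 nt, 0.572% and 1.14%. The median length was 101 nt for exons gaining in siSNRPA1, 119 nt for those in siSNRPB and 140 nt for all chosen exons. The measure itself leans this way, because inclusion reads grow with exon length while exclusion reads come from 1 junction; its part in the gradient was not tested. Depth in siCtrl ran the same way. Exons with 100 to 149 inclusion reads gained in 3.15% of cases in siSNRPA1 and 3.38% in siSNRPB, those with 500 or more in 0.176% and 0.351%. The rule can build in part of this, because 0 exclusion reads at greater depth sets a lower limit on the siCtrl share. Of wholly coding exons, 48.5% of those gaining in siSNRPA1 and 53.2% of those gaining in siSNRPB had a length divisible by 3, beside 42.0% of all chosen coding exons and 54.3% of coding exons with exclusion reads in siCtrl. Median GC content was 46.4%, 46.6% and 49.1% in gaining exons of siSNRPA1, of siSNRPB and in all chosen exons. The intron before the exon had a median of 1924 nt, 2662 nt and 2185 nt in the same sets and the one after it 2034 nt, 2680.5 nt and 1840.5 nt.

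**Figure D4:**
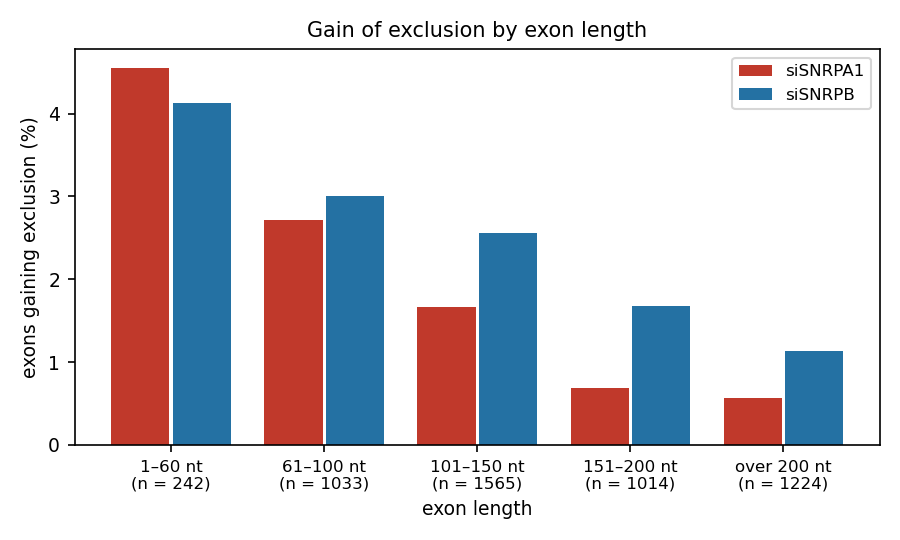
Percentage of chosen exons that gained exclusion in siSNRPA1 (red) and siSNRPB (blue) by exon length in nt, with the number of exons in each bin under it. Bars fall from left to right in both pools, from 4.55% and 4.13% at up to 60 nt.

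Other exons of the same genes had lower exclusion than the gaining exons, which the choice of the gaining exons fixes. Over all chosen exons the pooled share was 0.170% in siSNRPA1 and 0.165% in siSNRPB, but it varied with depth. At 100 to 149 siCtrl inclusion reads it was 0.605% and 0.709%, and at 500 or more 0.0736% and 0.0611%. Depth was not matched, so nothing is read from the gap between the other exons and all chosen exons. Genes with a gain in siSNRPA1 had 64 other chosen exons in 33 genes, and 20 of these had any exclusion read, where 24.3% of all chosen exons had one. Exclusion was 93 of 31488 informative reads there (0.295%), whereas the gaining exons had 8.37%. Genes with a gain in siSNRPB had 88 other chosen exons in 47 genes, 9 with an exclusion read (12.6% of all chosen exons had one), and 0.2% exclusion, whereas the gaining exons had 9.19%. In 3 genes for siSNRPA1 and 1 gene for siSNRPB the gains lay at more than 1 place.

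The ratio of inclusion reads to (1,1) reads asks whether the exon lost reads relative to its neighbours, with or without a skipping junction. Ratios were compared on the log2 scale after subtracting the median shift of all cassette exons with 20 reads of each class in both pools, which was -0.116 for siSNRPA1 and -0.043 for siSNRPB against siCtrl. The median of the chosen exons was 0.00 in siSNRPA1 (4737 exons) and -0.03 in siSNRPB (4387 exons). A ratio at least 1.5-fold lower was found for 469 exons (9.90%) in siSNRPA1 and 661 (15.1%) in siSNRPB, where the background over all cassette exons was 14.8% and 15.9%. A ratio at least 1.5-fold higher was found for 389 (8.21%) and 438 (9.98%), with a background of 13.9% and 16.1%. Without the subtraction 689 were lower and 245 higher in siSNRPA1, so the balance there depends on the centring. None of these counts is tested, since the rule used the siCtrl inclusion reads.

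Exons that gained exclusion had lower ratios than the rest. The choice can build in part of this, because a gain requires a share of at least 5% of informative reads, which few inclusion reads make easier to reach, and the same inclusion reads form the ratio. Their median log2 shift was -0.25 in siSNRPA1 (76 exons) and -0.40 in siSNRPB (97 exons), and 15 and 29 of them were 1.5-fold lower while 7 and 6 were higher. Exons without an exclusion read had medians of 0.01 and -0.03. Of the exons with a 1.5-fold lower ratio, 339 of 469 in siSNRPA1 and 576 of 661 in siSNRPB had no exclusion read, close to 3571 of 4737 and 3814 of 4387 among all chosen exons with a ratio.

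**Figure D5:**
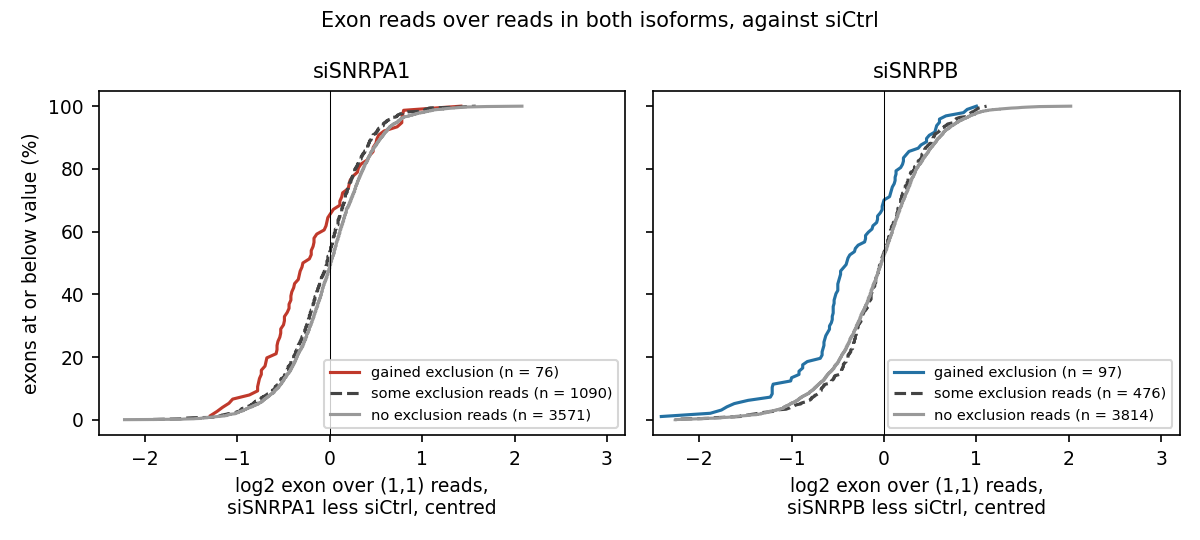
Cumulative percentage of chosen exons by the centred log2 shift in inclusion over (1,1) reads, siSNRPA1 less siCtrl (left) and siSNRPB less siCtrl (right), for exons that gained exclusion, had some exclusion reads or had none. The curves for gaining exons lie to the left, with medians of -0.25 and -0.40, while the other curves cross 50% near 0.

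Among the lowest ratios in siSNRPA1, for exons with at least 50 inclusion and 50 (1,1) reads in both pools, were those of PRDM10, ERRFI1, SUMF2 and KHDRBS3. PRDM10, a zinc finger transcription factor, had a ratio of 0.574 in siSNRPA1, 3.28 in siSNRPB and 2.23 in siCtrl, with 0 exclusion reads in all pools. In ERRFI1, an inhibitor of EGF receptor signalling, the ratios were 0.00543, 0.0111 and 0.0181. SUMF2, a sulfatase-modifying factor family member, had ratios of 1.22, 1.89 and 3.94, and the RNA-binding protein gene KHDRBS3 had 0.206, 0.459 and 0.658. These are log2 shifts in siSNRPA1 of -1.84, -1.62, -1.58 and -1.56 for PRDM10, ERRFI1, SUMF2 and KHDRBS3. Their exclusion reads in siSNRPA1 numbered 0, 2, 0 and 3. In siSNRPB, ERRFI1 gained exclusion, with 7 exclusion reads beside 96 inclusion reads (6.8%), and KHDRBS3 had 10 beside 221 (4.33%).

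Among the lowest ratios in siSNRPB were those of NPLOC4, a cofactor of the VCP segregase, with 1.52 in siSNRPA1, 0.603 in siSNRPB and 2.61 in siCtrl, and of LTBP1, a relative of LTBP4, with 2.97, 1.08 and 4.49. NARF, a lamin-binding protein, had 1.51, 0.555 and 2.32, and MFN1, which fuses mitochondria, had 2.73, 0.836 and 3.37. None of these 4 exons had an exclusion read in siSNRPB. In each of them siSNRPB lay lowest and siSNRPA1 lay between siSNRPB and siCtrl.

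Some exons moved the other way. DHX34, a helicase of nonsense-mediated decay, had ratios of 4.23 in siSNRPA1, 2.3 in siSNRPB and 1.29 in siCtrl, and CSNK2A1, a catalytic subunit of casein kinase II, had 1.65, 1.55 and 0.637. ZNF143, a transcription factor of promoters, had 3.91, 2.7 and 1.49, and SMPD4, a sphingomyelinase, 2.84, 1.43 and 1.12. HERC2P3, a pseudogene with close copies, had 2.81 in siSNRPA1 and 1.11 in siCtrl, with 6 (1,1) reads in siSNRPB. In siSNRPB the highest log2 shifts among exons with at least 50 reads of each kind in both pools, 1 exon per gene, were those of IFFO2 (1.64), NAA10 (1.57), APH1A (1.47), RABGEF1 (1.45) and ZNF131 (1.42). NAA10 encodes an N-terminal acetyltransferase and APH1A a gamma-secretase subunit. The RABGEF1 exon overlaps a gene on the other strand. Their ratios were 1.74, 1.24, 0.322, 1.17 and 2.81 in siSNRPA1, 3.28, 2.34, 0.743, 2.23 and 5.6 in siSNRPB and 1.09, 0.814, 0.277, 0.841 and 2.16 in siCtrl, so siSNRPB was highest and siCtrl lowest in each.

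Between the knockdowns the ratio was tested on inclusion and (1,1) reads with a two-sided Fisher's exact test, a centred difference of 1.5-fold and adjustment over the whole table. Of 4410 chosen exons tested, 457 had a higher ratio in siSNRPA1 (10.4%) and 390 a lower one (8.84%), where the background was 9.98% and 12.1%. The share that was higher is thus close to the background, and without centring on the median shift of -0.072 the counts were 408 and 460. Of the exons that passed in exclusion, 17 of 80 also passed in the ratio in the matching direction, and 828 exons passed in the ratio alone. Some of the 80, among them SNHG5, LTBP4, HGSNAT and MFSD1, had too few (1,1) reads for the ratio test. Of all chosen exons tested for the ratio, 10.4% and 8.84% passed in each direction, so nothing is read from the 17. The PSMA4 exon passed in both exclusion and ratio, but in directions that do not match. Its ratio was higher in siSNRPA1, with a log2 difference of 0.78 (Fisher's exact test, adjusted p = 0.0124). KHDRBS3 had a lower ratio in siSNRPA1 than in siSNRPB, with a log2 difference of -1.09 (Fisher's exact test, adjusted p = 4.76e-11). NPLOC4, LTBP1 and MFN1 had higher ones by 1.40, 1.54 and 1.78 (Fisher's exact test, adjusted p of 3.62e-06, 6.84e-06 and 5.16e-07). The HSPA9 exon had a lower ratio in siSNRPA1, with a log2 difference of -1.07 for its 59-nt form (Fisher's exact test, adjusted p = 2.61e-19), in the same direction as its exclusion reads. DDX42 went the other way, with a ratio of 0.502 in siSNRPA1 and 0.172 in siSNRPB (Fisher's exact test, adjusted p = 4.23e-06) and exclusion shares that did not differ by the test.

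The authors' inclusion levels gave a further reading of the same exons. Their median over the chosen exons was 0.98 in siSNRPA1, 0.96 in siSNRPB and 0.98 in siCtrl. In the authors' deposited table a fall of at least 0.1 with a Bayes factor of at least 10 was listed for 301 exons in siSNRPA1 (5.93%) and 302 in siSNRPB (5.95%), and over all cassette exons in 4.86% and 5.49%. Rises of that size were listed for 56 and 64 exons (1.10% and 1.26%), and over all cassette exons in 2.26% and 2.38%. In siCtrl 80.3% of the chosen exons had a level of at least 0.9, which leaves little room to rise. The exons of the background had no read minimum, so nothing is read from these gaps. Of the falls, 165 in siSNRPA1 and 166 in siSNRPB had no exclusion read. Of the exons that gained exclusion by reads, 48 of 79 and 82 of 112 were among the listed falls. The level is estimated from the same reads, so this overlap is partly built in.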

How the data were processed

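The deposited inclusion level is a fraction, the posterior mean per the file headers, which are in the layout of MISO. Read classes come from the same deposited summaries, 1 per group. In the deposited comparison tables the difference in inclusion is a score from -1 to 1 and the Bayes factor a ratio. The submitters' processing notes name STAR 2.7 and hg38, with no role given; not given in the sources used here are the MISO version and settings, how libraries were pooled and whether strand was used. The number of per-sample columns left unused was 0.

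Of several events with the same middle exon, the one with the most inclusion reads in siCtrl was kept before the rule was applied. Positions and symbols follow GENCODE 29, which lists 98.1% of the chosen exons exactly. Expected shares at 50 reads are hypergeometric. The members, the 16 gene lists and the tests were chosen with earlier results of these data known. Named exons were, 1 per gene, the 10 highest exclusion shares in each knockdown (at least 100 informative and 10 exclusion reads), the 6 largest passing differences each way, the 5 lowest and 5 highest ratios in each knockdown (at least 50 reads of each class), up to 2 per list, the 3 deepest, and HSPA9, ACVR1B and MSL1; ACVR1B and MSL1 had under 100 inclusion reads in siCtrl and were not chosen. Some exons that this rule names are not reported here. Exons overlapping a gene on the other strand (9.04%) and near-identical copies are uncertain. Python 3.11.15, scipy 1.17.1, numpy 2.4.6, pandas 2.3.3 and matplotlib 3.10.9 were used, and the tests were checked on simulated data. The simulated reads were independent and had no spread between libraries, so the check does not give the error rate for these pools.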

Additional observations from a re-analysis of the deposited data

How the results depend on the processing

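Each group is 1 pool, so leaving out replicates was not possible. No paired analysis was possible because the libraries of a group are pooled in the files, although the labels share replicate numbers. Of 76 recomputed counts, 43 stayed within 1.5 times the reported one. Where the other counts moved, the alternative's own construction (a stricter size, other read minimums or less power) sets the direction; for the uncentred ratio and the inclusion level the cause was not tested.

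Exclusion between the knockdowns, 80 exons (12 higher in siSNRPA1, 68 in siSNRPB), became 34 (6 and 28) at a difference of 0.10, 6 (1 and 5) with counts divided by 2, and 27 (8 and 19) with siSNRPA1 reads scaled to the siSNRPB depth, an alternative chosen after seeing the data. The ratio between the knockdowns, 847 exons, became 304 (196 higher and 108 lower) at 2-fold, 323 (138 and 185) with counts divided by 2, and had 301 higher at 50 reads of each class. Gains in siSNRPA1, 79, became 17 with at least 200 inclusion reads in siCtrl, 211 with 50, 22 at a share of 0.10 and 605 by a fall of the inclusion level of 0.1. Gains in siSNRPB, 112, became 44, 181, 44 and 787 in the same settings. The ratio of siSNRPA1 to siCtrl gave 245 higher exons uncentred and 202 shifted exons (111 lower, 91 higher) at 2-fold; that of siSNRPB gave 324 (233 and 91) at 2-fold and 639 (353 and 286) at 50 reads of each class.

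Counting overlapping forms once gave 74 gains in siSNRPA1 and 104 in siSNRPB, applying the rule to events first gave 85 and 114, and leaving out exons with a gene on the opposite strand gave 75 and 107; these too were chosen after seeing the data. For the 27 named exons that passed between the knockdowns, 144 of 186 recomputed calls held and 42 were lost: 9 at a difference of 0.10, 22 with counts divided by 2 and 11 at equal depth. Under a minimum of 50 informative reads PXMP4, BSCL2 and FAM86EP were not tested and are not among the 186. They had 40, 33 and 26 informative reads in siSNRPB. Reversal of direction was not assessed by most of these settings. The exclusion shares were not recomputed when thresholds, counts or depth were changed, so the differences kept their sign by construction. The alternative choices of event left the differences of the named exons unchanged.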

Other observations

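Having no exclusion read did not mean a high inclusion level in siCtrl. Of the 5078 chosen exons, 342 (6.73%) had an authors' inclusion level under 0.5 there, while 4079 had at least 0.9. The low group had a median of 0.243 inclusion reads per (1,1) read, beside 1.53 in the high group, and a median length of 164 nt, beside 136 nt. In the low group the median level was 0.315 in siSNRPA1, 0.33 in siSNRPB and 0.34 in siCtrl. Exclusion was gained by 7 of the 342 exons in siSNRPA1 (2.05%) and 15 in siSNRPB (4.39%), and by 1.42% and 1.86% of the high group. C9orf3 is one of the low group, with levels of 0.14, 0.1 and 0.16 in siSNRPA1, siSNRPB and siCtrl and 19 exclusion reads in siSNRPB only.

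Of the falls of the authors' inclusion level, 45.2% in siSNRPA1 and 45.0% in siSNRPB had a skipping read, beside 24.3% and 12.6% of all chosen exons. Skipping reads enter the level itself, so the choice of falls can build in part of this excess. In siSNRPA1 the 165 falls without an exclusion read had a median change of -0.26 and the 136 with one had -0.22. In siSNRPB the 166 without had -0.33 and the 136 with had -0.25. The log2 shift of the ratio of inclusion to (1,1) reads had medians of -0.60 and -0.51 in siSNRPA1 and of -0.83 and -0.55 in siSNRPB for the falls without and with exclusion reads.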
